A study of Homo sapiens with 12 samples.

Results

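AMOTL1, ARHGEF17 and CYR61 are 3 genes of the Hippo pathway output whose RNA was higher after knockdown of ARID1A in Ishikawa cells, which derive from a human adenocarcinoma of the endometrium. They are 3 of the 45320 genes in the count files, and all 3 were among the 17020 genes that passed the filter on low counts. They were picked by name because they were higher in the knockdown arm, so the size of that difference is given here as a description with no test, while their behaviour under hormone treatment was not used in picking them and was tested. The shARID1A cells carried a short hairpin against ARID1A, the gene of a DNA-binding subunit of the SWI/SNF family of chromatin remodellers, and the shNC cells carried a control hairpin. Both arms were kept for at least 4 days in medium without phenol red and with serum stripped of steroids, and then spent 8 h in vehicle (DMSO), in 17-beta-estradiol (E2) at 10 nM, or in the same E2 dose together with fulvestrant at 100 nM. Fulvestrant blocks the estrogen receptor and leads to its breakdown. This gave 6 groups of 2 poly(A) RNA libraries: shARID1A with DMSO, E2 or E2 plus fulvestrant, and shNC with DMSO, E2 or E2 plus fulvestrant. The labels name a single cell line. They leave unstated whether replicate libraries are separate cultures and how many hairpins or clones were used per arm. P-values therefore measure only the spread between these libraries, which may be technical. Loss of ARID1A cannot be told apart from any other way in which the shARID1A and shNC lines differ.

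The Hippo pathway is a kinase cascade in which MST kinases (STK3 and STK4) activate the LATS kinases, which phosphorylate the coactivators YAP1 and TAZ (WWTR1) and keep them out of the nucleus. When LATS activity is low, YAP1 and TAZ enter the nucleus, bind TEAD transcription factors and raise a set of target genes. CYR61, also called CCN1, is a secreted matrix-associated protein of the CCN family and one of the classical YAP/TEAD targets. AMOTL1 encodes angiomotin-like 1, a junction and actin-associated scaffold that binds YAP1 and can hold it in the cytoplasm. ARHGEF17 encodes a guanine nucleotide exchange factor that activates small GTPases acting on the actin cytoskeleton.

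The deposited counts do not cover the 3 genes equally, and this bears on what each value stands for. Per the file headers, reads were counted over exons of hg19, and the exons counted were compared here with the GENCODE 29 transcripts of each gene, allowing exon borders to differ by 2 bases. AMOTL1 (chr11:94439597-94609918, plus strand) was counted over 17 merged exons and 10035 bases, which held all 5 of its GENCODE 29 transcripts and all of the 9352 bases in exons of its coding transcripts. Of the 10035 counted bases, 496 were shared with ENSG00000256469.1 on the opposite strand, which had 0 counts in every library. Counting had no strand setting, so these 0 counts do not tell whether that gene was expressed. ARHGEF17 (chr11:73022610-73078988, plus strand, 21.4 Mb from AMOTL1) was counted over 3312 bases, which took in 24.5% of the 8739 coding-transcript exon bases. Its counted exons held 5 of 7 transcripts, of which 1 was coding, and both long coding transcripts (ARHGEF17-201 and ARHGEF17-207) were absent. CYR61 (chr1:86046883-86047782, plus strand) was counted over only 551 bases, those of the processed transcript CYR61-202. This took in 16.9% of the 2290 exon bases of the coding transcript CYR61-201. Such partial counting was not particular to these genes, since 2226 of 10951 tested genes with a coding transcript of the same symbol (20.3%) were counted over less than 50% of that transcript length. The CYR61 and ARHGEF17 values are therefore levels of part of each gene.

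**Figure D1:**
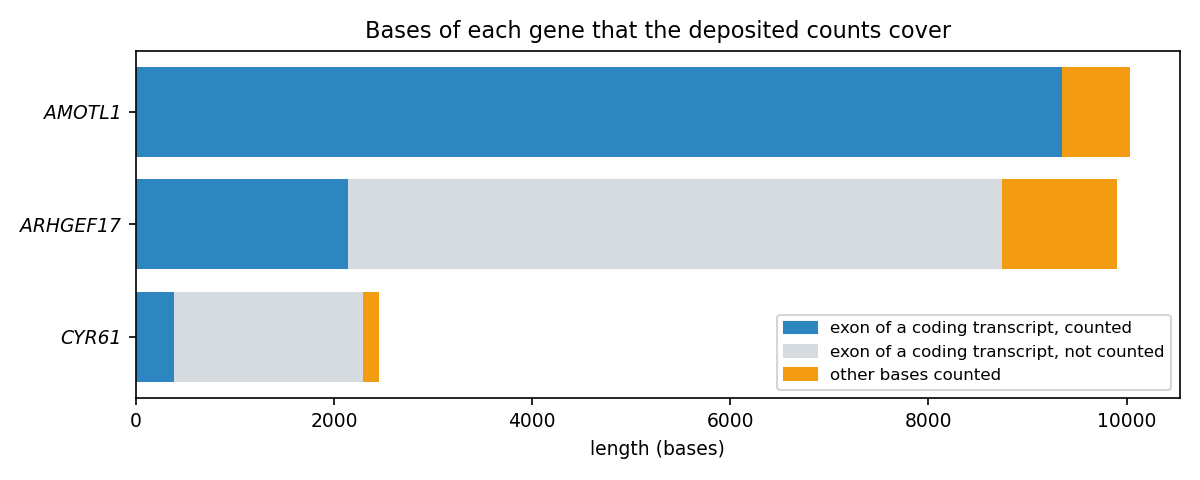
Length in bases (horizontal axis) of AMOTL1, ARHGEF17 and CYR61, divided into exons of GENCODE 29 coding transcripts that the deposited counts cover, such exons that they do not cover, and other bases that were counted. AMOTL1 was counted over all 9352 of its coding-transcript exon bases, ARHGEF17 over 2143 of 8739 and CYR61 over 386 of 2290.

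The first 300 bases of CYR61-202 are shown because every CYR61 count rests on this transcript. GENCODE 29 places it on GRCh38 at chr1:85581200-85582099, plus strand, with 2 exons. Bases in capitals also lie in exons of the coding transcript CYR61-201, and the 165 in lower case do not. Over the whole of CYR61-202, 386 bases are of the first kind, and a spliced coding RNA can give counts from those alone.
CYR61-202, first 300 bases: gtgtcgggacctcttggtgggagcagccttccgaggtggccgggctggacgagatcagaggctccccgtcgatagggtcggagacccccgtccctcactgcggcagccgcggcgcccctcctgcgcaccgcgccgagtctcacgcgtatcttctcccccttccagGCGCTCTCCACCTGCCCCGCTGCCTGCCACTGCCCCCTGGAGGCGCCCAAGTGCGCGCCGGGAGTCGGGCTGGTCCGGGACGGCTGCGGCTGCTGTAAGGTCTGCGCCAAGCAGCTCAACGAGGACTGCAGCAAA

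The AMOTL1 promoter is shown because AMOTL1 and its close relative AMOTL2 were both higher in the knockdown arm, and AMOTL2 serves as the comparison. Both come from RefSeq (GRCh38.p14) and span 250 bases before to 50 bases after a transcription start. RefSeq promoters matched 1 of the 3 genes by symbol (AMOTL1). The letters GGAATG, the core recognised by TEAD factors, were searched on both strands, together with TGANTCA (AP-1) and GGTCANNNTGACC (the palindromic estrogen response element). None of these letter strings contains another. Of 35116 RefSeq promoters of this length, 14.0% held GGAATG, 7.71% held TGANTCA and 0.0570% held the estrogen response element. The AMOTL1 promoter (chr11:94768106-94768405, plus strand) held none of the 3 in this window. One of 2 AMOTL2 promoters (chr3:134374398-134374697, minus strand) held GGAATG on its reverse strand, printed in capitals as CATTCC, with its first base 69 bases before the start (position -69). Among 20 other conserved YAP/TEAD targets, 16 had a RefSeq promoter, and 9 of their 18 promoters held GGAATG. A match describes letters only.
AMOTL1 promoter: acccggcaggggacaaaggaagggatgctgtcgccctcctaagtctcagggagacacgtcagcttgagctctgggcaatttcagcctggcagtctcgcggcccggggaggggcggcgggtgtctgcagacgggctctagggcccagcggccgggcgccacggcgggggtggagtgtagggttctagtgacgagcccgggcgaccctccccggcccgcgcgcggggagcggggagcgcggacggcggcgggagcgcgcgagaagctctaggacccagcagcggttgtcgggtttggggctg
AMOTL2 promoter: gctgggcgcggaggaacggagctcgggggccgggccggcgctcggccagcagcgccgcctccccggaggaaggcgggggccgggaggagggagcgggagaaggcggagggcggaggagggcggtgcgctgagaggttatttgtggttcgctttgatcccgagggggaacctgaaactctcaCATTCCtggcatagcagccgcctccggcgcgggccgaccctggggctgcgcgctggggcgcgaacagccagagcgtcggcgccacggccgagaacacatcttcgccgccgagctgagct

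Knockdown was checked first. ARID1A averaged 57.4 ± 2.63 CPM (reads of a gene relative to the library total, after TMM scaling) in shARID1A libraries and 117.6 ± 5.04 CPM in shNC libraries (SD, n = 6 each), a ratio of 0.489. The counted exons took in 65.1% of the 9871 coding-transcript exon bases of ARID1A and held 2 of its 8 coding transcripts. The arms did not overlap, with 53.8 to 61.7 CPM in shARID1A and 109.9 to 123.3 CPM in shNC. Library totals ran from 28810351 to 38657162 counts. Of the 17020 genes tested, 20.3% were called higher and 22.8% lower in shARID1A than in shNC when averaged over the 3 treatments (edgeR quasi-likelihood F-test, Benjamini-Hochberg adjusted p under 0.05). Among markers of the labelled epithelial cells, KRT8 was 343 to 367 CPM in shARID1A against 563 to 619 CPM in shNC, and KRT18 was 193 to 216 CPM in shARID1A against 280 to 320 CPM in shNC. MUC1 was 66.1 to 82.5 CPM in shARID1A against 94.0 to 114.6 CPM in shNC. PAX8 was 1.32 to 2.26 CPM in shARID1A against 2.29 to 2.98 CPM in shNC. EPCAM was 0.383 to 1.02 CPM in shARID1A against 1.28 to 1.97 CPM in shNC. CDH1 was no higher than 0.658 CPM and CLDN4 no higher than 0.363 CPM in any library. These 3 epithelial markers were thus low in the counts. The counted lengths of EPCAM and CDH1 were 2146 and 5549 bases, beside 2238 and 4975 bases in exons of their coding transcripts. The counted length of CLDN4 is not given here. The 7 epithelial markers, of which 4 in shARID1A and 5 in shNC averaged at least 1 CPM, summed to 605 to 658 CPM in shARID1A and 949 to 1044 CPM in shNC. The 8 stromal fibroblast markers summed to 50.1 to 53.3 CPM in shARID1A and 32.2 to 44.0 CPM in shNC, mostly from COL1A1, with THY1 at 0 in every library. COL1A1 alone was higher without overlap, at 45.5 to 48.6 CPM in shARID1A against 25.2 to 35.1 CPM in shNC. PDGFRB was lower without overlap, at 3.75 to 4.89 CPM in shARID1A against 4.93 to 7.71 CPM in shNC, and so was DCN, at 0.0337 to 0.473 CPM in shARID1A against 0.940 to 1.62 CPM in shNC. The 5 immune markers summed to at most 0.769 CPM, the 3 of 5 endothelial markers in the files to at most 0.264 CPM and the 4 smooth muscle markers to at most 3.62 CPM. The part of these marker differences in the results was not tested, and in bulk RNA fewer cells of a type cannot be told apart from less RNA per cell.

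AMOTL1, the scaffold that can retain YAP1, had the largest difference between the arms among the 3 genes when averaged over treatments. It reached 164.1 and 159.6 CPM in shARID1A with DMSO, 154.5 and 165.1 CPM with E2, and 165.3 and 167.9 CPM with E2 plus fulvestrant. In shNC it reached 98.9 and 100.2 CPM with DMSO, 95.1 and 101.6 CPM with E2, and 95.8 and 98.3 CPM with E2 plus fulvestrant. The lowest shARID1A library was 52.9 CPM above the highest shNC library, so the arms did not overlap. The mean was 162.8 ± 4.86 CPM in shARID1A and 98.3 ± 2.50 CPM in shNC (SD, n = 6 each), which is 65.5% higher. The fitted log2 fold change was 0.70 (standard error, SE, 0.06) with DMSO, 0.70 (SE 0.06) with E2 and 0.78 (SE 0.06) with E2 plus fulvestrant.

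ARHGEF17, the guanine nucleotide exchange factor, had a difference of similar proportion, measured over the part of the gene that was counted. In shARID1A it reached 49.2 and 45.2 CPM with DMSO, 47.5 and 45.7 CPM with E2, and 44.9 and 43.5 CPM with E2 plus fulvestrant. In shNC it reached 30.6 and 26.6 CPM with DMSO, 30.4 and 27.5 CPM with E2, and 32.6 and 25.0 CPM with E2 plus fulvestrant. The widest pair was the shNC one with E2 plus fulvestrant, and even its higher library lay 10.97 CPM below the lowest shARID1A library. The arm means were 46.0 ± 2.03 CPM in shARID1A and 28.8 ± 2.87 CPM in shNC (SD, n = 6 each), 59.97% higher. Fitted log2 fold changes were 0.72 (SE 0.10) with DMSO, 0.69 (SE 0.10) with E2 and 0.62 (SE 0.10) with E2 plus fulvestrant.

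CYR61, the secreted CCN protein, had the smallest difference of the 3, over the 551 counted bases. In shARID1A it reached 54.2 and 55.2 CPM with DMSO, 53.2 and 53.7 CPM with E2, and 58.5 and 52.9 CPM with E2 plus fulvestrant. In shNC it reached 35.2 and 37.9 CPM with DMSO, 40.9 and 38.3 CPM with E2, and 40.3 and 37.0 CPM with E2 plus fulvestrant. Again the arms did not overlap, with 11.96 CPM between the lowest shARID1A and the highest shNC library. The arm means were 54.6 ± 2.05 CPM in shARID1A and 38.3 ± 2.11 CPM in shNC (SD, n = 6 each), 42.7% higher. Fitted log2 fold changes were 0.58 (SE 0.09) with DMSO, 0.43 (SE 0.08) with E2 and 0.53 (SE 0.08) with E2 plus fulvestrant.

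**Figure D2:**
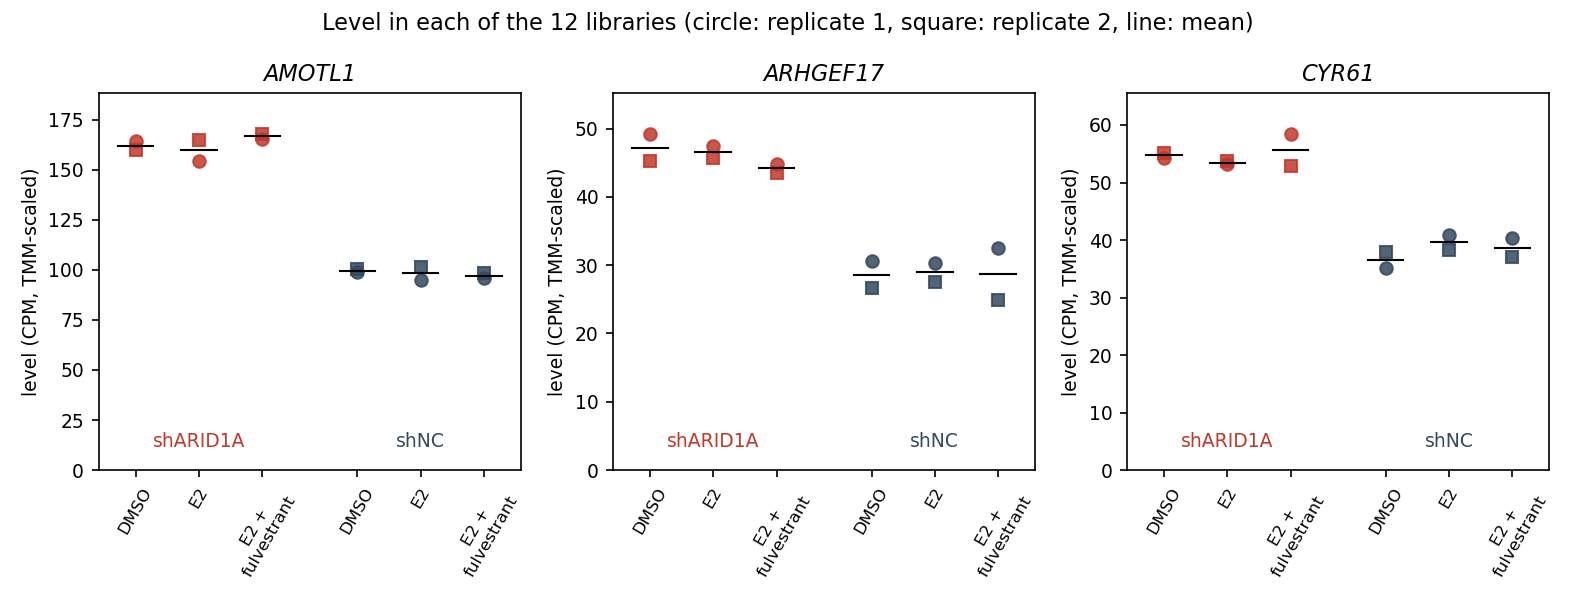
TMM-scaled CPM (vertical axis, from 0) of AMOTL1, ARHGEF17 and CYR61 in every library, by arm and treatment; circles and squares are the 2 libraries of a group and lines their mean. All 6 shARID1A libraries lie above all 6 shNC libraries for each gene, by at least 52.9, 10.97 and 11.96 CPM, and the treatments lie close together within an arm. The genes were chosen for being higher in shARID1A, and the share of all genes so separated was not computed.

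The 3 differences can be placed among all genes, as a description that the choice of the genes fixed in direction. Averaged over treatments, the log2 fold change was 0.73 (SE 0.04) for AMOTL1, 0.68 (SE 0.06) for ARHGEF17 and 0.51 (SE 0.05) for CYR61, against a median of -0.02 over all 17020 genes. An increase at least as large was fitted for 3.33% of genes in the case of AMOTL1, for 3.81% in the case of ARHGEF17 and for 6.18% (1052 genes) in the case of CYR61. All 3 genes had a higher level in shARID1A with no overlap of libraries. The share of all genes without such overlap was not computed, so the lack of overlap cannot be read as particular to these genes. By the different measure of the edgeR test, 20.3% of all genes were called higher.

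AMOTL1 had 2973 to 6108 counts per library, ARHGEF17 had 779 to 1690 and CYR61 had 1124 to 1987. The SD between libraries of a group was 0.04 for AMOTL1, 0.14 for ARHGEF17 and 0.07 for CYR61 on the log2 scale, while counting error alone gives SDs of 0.02, 0.04 and 0.04 for the same genes. Replicate 1 of ARHGEF17 exceeded replicate 2 in each of the 6 groups. Per counted kilobase, CYR61 was the most abundant, at 99.1 ± 3.73 RPKM in shARID1A and 69.4 ± 3.83 RPKM in shNC (SD, n = 6 each). AMOTL1 stood at 16.2 ± 0.485 RPKM in shARID1A and 9.80 ± 0.249 RPKM in shNC, and ARHGEF17 at 13.9 ± 0.612 RPKM in shARID1A and 8.68 ± 0.865 RPKM in shNC. These per-length levels apply to the counted bases, which for CYR61 and ARHGEF17 are a minor part of the coding transcripts.

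Whether estradiol moved the 3 genes was the first question that their selection did not touch, and no change was detected. Averaged over both arms, E2 against DMSO gave a log2 fold change of -0.02 for AMOTL1 (95% confidence interval -0.11 to 0.07), -0.00 for ARHGEF17 (-0.15 to 0.14) and 0.04 for CYR61 (-0.08 to 0.16). The adjusted p was 1.00 for each in edgeR's quasi-likelihood test over all genes. The intervals leave room for changes between -0.15 and 0.16 on the log2 scale. The hormone comparison as a whole called 1 of 17020 genes (0.00588%), and 696 genes had an unadjusted p under 0.05, so a count of 0 among 3 genes is no result about them. Within the shARID1A arm, E2 gave -0.02 for AMOTL1, -0.02 for ARHGEF17 and -0.03 for CYR61, with adjusted p from 0.96 to 0.98 in edgeR, where 0.0235% of genes were called. Within the shNC arm it gave -0.02, 0.01 and 0.12 for the same genes, with an adjusted p of 1.00 each in edgeR, where 0.00588% of genes were called. The 0.12 of CYR61 in shNC (interval -0.06 to 0.30, and 0.072 to 0.17 with each library left out in turn) was the largest of these 6 values, from 39.6 ± 1.82 CPM with E2 against 36.5 ± 1.92 CPM with DMSO (SD, n = 2 each).

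Fulvestrant on top of E2 gave no detectable change either. Averaged over both arms, E2 plus fulvestrant against E2 gave 0.02 for AMOTL1 (interval -0.07 to 0.11), -0.04 for ARHGEF17 (-0.19 to 0.11) and 0.01 for CYR61 (-0.11 to 0.13), with adjusted p of 0.89, 0.85 and 0.95 in edgeR, beside 11 genes called in all (0.0646%). Within the arms, AMOTL1 gave 0.06 in shARID1A and -0.02 in shNC, ARHGEF17 gave -0.07 in shARID1A and -0.00 in shNC, and CYR61 gave 0.06 in shARID1A and -0.03 in shNC. Those comparisons called 0.00588% of genes in each arm, and none of the 3. E2 plus fulvestrant against DMSO gave 0.00 for AMOTL1, -0.04 for ARHGEF17 and 0.05 for CYR61 over both arms, where 0.0% of genes were called. In that comparison 1422 genes had an unadjusted p under 0.05, and DESeq2 called 2. These comparisons share their E2 or DMSO libraries with one another.

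No difference between the arms in the effect of hormone treatment was detected for the 3 genes. The E2 effect in shARID1A minus that in shNC was -0.00 for AMOTL1 (interval -0.18 to 0.18), -0.03 for ARHGEF17 (-0.33 to 0.26) and -0.15 for CYR61 (-0.39 to 0.09), with adjusted p of 1.00, 0.98 and 0.88 in edgeR, where 0.0294% of genes were called. The effect of adding fulvestrant to E2 differed between arms by 0.08 for AMOTL1 (-0.10 to 0.26), -0.07 for ARHGEF17 (-0.37 to 0.23) and 0.09 for CYR61 (-0.15 to 0.33), where 0.0118% of genes were called. The difference in the effect of E2 plus fulvestrant against DMSO was 0.08 for AMOTL1 (-0.10 to 0.26), -0.10 for ARHGEF17 (-0.40 to 0.20) and -0.06 for CYR61 (-0.30 to 0.19), where 0.0% of genes were called. Over all 36 tests of treatment (12 a gene), edgeR called 0, the lowest unadjusted p was 0.193 and the lowest adjusted p 0.767. DESeq2 also called 0 of these 36 tests, 0 having an unadjusted p under 0.05. The intervals of these differences between arms reach 0.26 in size for AMOTL1, 0.40 for ARHGEF17 and 0.39 for CYR61.

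**Figure D3:**
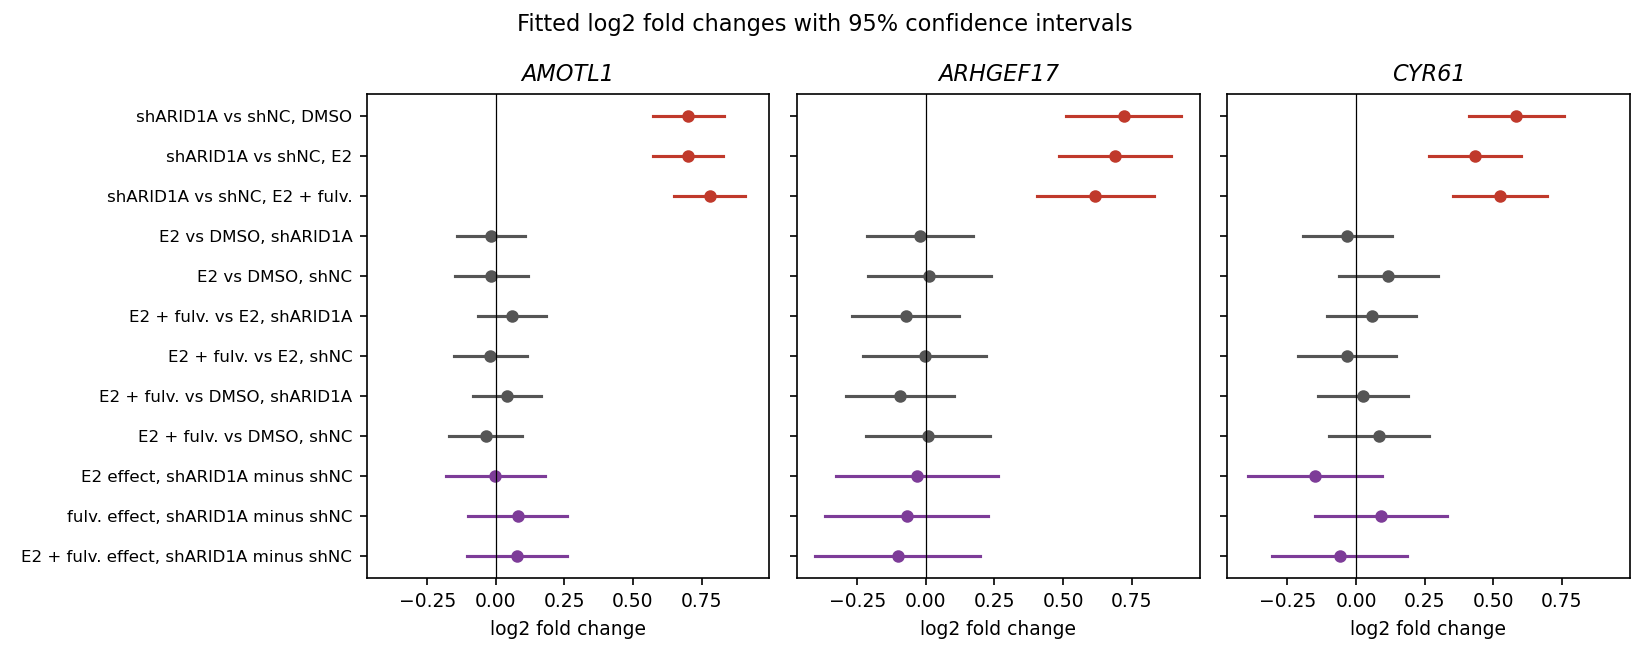
Fitted log2 fold changes (points) with 95% confidence intervals (bars) of AMOTL1, ARHGEF17 and CYR61, for shARID1A against shNC in each treatment (red, not tested), the treatments within each arm (grey) and the differences of treatment effects between arms (purple). The 9 red values lie between 0.43 and 0.78, and every grey and purple interval includes 0.

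The order of the 6 group means showed the same division. For all 3 genes the 3 shNC groups were the lowest and the 3 shARID1A groups the highest. Among the shNC groups the library ranges of neighbours in this order overlapped for each gene. Among the shARID1A groups, neighbouring ranges were apart for AMOTL1 between E2 plus fulvestrant (166.6 CPM) and DMSO (161.9 CPM), for ARHGEF17 between E2 plus fulvestrant (44.2 CPM) and E2 (46.6 CPM), and for CYR61 between E2 (53.5 CPM) and DMSO (54.7 CPM). None of these steps passed the edgeR test.

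The factors that act on these genes gave a mixed picture, with TAZ and 3 of 4 TEAD genes higher in the knockdown arm and YAP1 not called. Of 8 tested genes among YAP1, TAZ, TEAD and VGLL factors, 4 rose and 1 fell in shARID1A against shNC (averaged over treatments, beside 20.3% and 22.8% of all genes), with a median log2 fold change of 0.20. TEAD4 rose by 0.54 (SE 0.04, adjusted p = 1.4e-11 in edgeR), to 76.4 ± 3.22 CPM in shARID1A against 52.6 ± 3.21 CPM in shNC (SD, n = 6 each), and its counts cover a length equal to 40.4% of its coding-transcript exons. TEAD1 rose by 0.28 (SE 0.04) and TEAD3 by 0.27 (SE 0.05). TAZ (WWTR1) rose by 0.26 (SE 0.06), with 31.0 ± 1.26 CPM in shARID1A and 25.9 ± 0.810 CPM in shNC. Its counts cover a length equal to 58.0% of its coding-transcript exons. By single treatment, TAZ was called with DMSO and with E2 plus fulvestrant but not with E2 (adjusted p = 0.060 in edgeR). YAP1 averaged 122.4 ± 5.86 CPM in shARID1A and 126.6 ± 11.7 CPM in shNC, which is a change of -0.05 (log2, SE 0.04) with an adjusted p of 0.40 in edgeR. TEAD2 gave -0.09 (SE 0.08) and did not pass the test. VGLL3, a TEAD cofactor at low level, fell by 1.47 (SE 0.22), to 0.769 ± 0.274 CPM in shARID1A against 2.08 ± 0.241 CPM in shNC.

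Of 22 upstream kinases and regulators tested, 7 rose, 6 fell and 9 were not called, beside 20.3% higher and 22.8% lower of all genes, with a median of 0.05 against -0.02. These counts are no result particular to the regulators. No list was tested as a set, so the counts for this list and those that follow are descriptions only. LATS2, a kinase that restrains YAP1 and is itself a target of YAP1 and TEAD, rose by 0.71 (SE 0.12), from counts over a length equal to only 8.98% of its coding-transcript exons. MAP4K4, a kinase that can act in parallel to the MST kinases, rose by 0.65 (SE 0.05), to 60.7 ± 4.64 CPM in shARID1A against 38.6 ± 2.17 CPM in shNC. FAT4, an atypical cadherin, fell by 2.04 (SE 0.21), to 0.818 ± 0.180 CPM in shARID1A against 3.35 ± 0.661 CPM in shNC. The counts of FAT4 cover a length equal to 60.7% of its coding-transcript exons. STK38L, a kinase related to LATS, fell by 0.44 (SE 0.09). LATS1 gave -0.05 (SE 0.08) and NF2, the membrane scaffold also called merlin, gave 0.09 (SE 0.04), neither past the test.

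Of 20 further conserved YAP/TEAD targets listed, 16 were tested, of which 5 rose, 5 fell and 6 were not called, beside 20.3% higher and 22.8% lower of all genes. Their median was -0.05 against -0.02 for all genes. AMOTL2 rose by 0.33 (SE 0.03), to 196.1 ± 4.95 CPM in shARID1A against 155.6 ± 2.40 CPM in shNC, with no overlap between arms. CRIM1, a transmembrane protein that binds growth factors of the BMP family, rose by 0.37 (SE 0.04). GADD45A, a stress and DNA damage response gene, fell by 0.55 (SE 0.07), and TGFB2, a ligand of the TGF-beta family, fell by 0.54 (SE 0.11). LATS2 also belongs to this list. CTGF is another classical CCN target on this list. The count files held 16 of the 20 listed genes, all of which were tested, and CTGF was not among them. AMOTL1, ARHGEF17 and CYR61 were selected for being higher, so their own direction adds nothing to this count.

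Genes tied to AMOTL1 and CYR61 by function came next. In the angiomotin group, which holds AMOTL2 and enzymes that control angiomotin turnover, 1 of 7 rose and 3 fell, beside 20.3% higher and 22.8% lower of all genes. The 3 that fell were the ubiquitin ligases NEDD4L (-0.56, SE 0.05) and NEDD4 (-0.45, SE 0.06) and the deubiquitinase USP9X (-0.22, SE 0.05). AMOT itself did not pass the filter on low counts. Of 2 other CCN genes tested, WISP2 rose by 0.28 (SE 0.04), to 407 ± 21.7 CPM in shARID1A against 335 ± 14.7 CPM in shNC, and NOV fell by 0.75 (SE 0.10), to 6.45 ± 0.852 CPM in shARID1A against 10.8 ± 1.40 CPM in shNC. Among 7 receptors for CYR61, 4 rose and 3 fell, beside 20.3% higher and 22.8% lower of all genes. The integrin subunits ITGB5 (0.64, SE 0.03) and ITGB2 (0.68, SE 0.15) rose, while ITGAV (-0.50, SE 0.10), which pairs with ITGB5, and ITGA6 (-0.50, SE 0.05) fell. The count of 4 that rose came to 2 without any 1 of 5 libraries (shARID1A E2 replicate 2, shARID1A E2 plus fulvestrant replicate 1, and replicate 2 of each shNC group).

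Of 22 other ARHGEF genes tested, relatives of ARHGEF17, 8 rose and 6 fell, beside 20.3% higher and 22.8% lower of all genes, with a median of 0.06. ARHGEF6 rose by 1.55 (SE 0.23) at a mean of 1.60 CPM, ARHGEF37 rose by 0.60 (SE 0.16), ARHGEF40 fell by 1.03 (SE 0.07) and ARHGEF2, a microtubule-associated exchange factor, fell by 0.47 (SE 0.03). Targets of SRF and its actin-regulated MRTF cofactors, which respond to actin assembly and include genes that YAP also reaches, gave 5 that rose and 3 that fell of 13, beside 20.3% higher and 22.8% lower of all genes. FHL1, a LIM-domain protein, rose by 1.11 (SE 0.09), to 12.2 ± 0.672 CPM in shARID1A against 5.63 ± 0.677 CPM in shNC. ACTB (0.31, SE 0.02) and SRF (0.16, SE 0.05) rose and CNN2 fell by 0.16 (SE 0.04). The count of 5 that rose came to 3 without shARID1A E2 replicate 2. Of 7 immediate early genes, a class to which CYR61 belongs, 1 rose and 2 fell, beside 20.3% higher and 22.8% lower of all genes. FOSB fell by 1.03 (SE 0.11), ATF3 fell by 0.11 (SE 0.04) and ZFP36 rose by 0.25 (SE 0.07), while the count of 2 that fell came to 1 without any 1 of 6 libraries (replicate 1 of shARID1A with DMSO or E2, replicate 2 of shARID1A with E2 plus fulvestrant, and the same 3 in shNC).

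**Figure D4:**
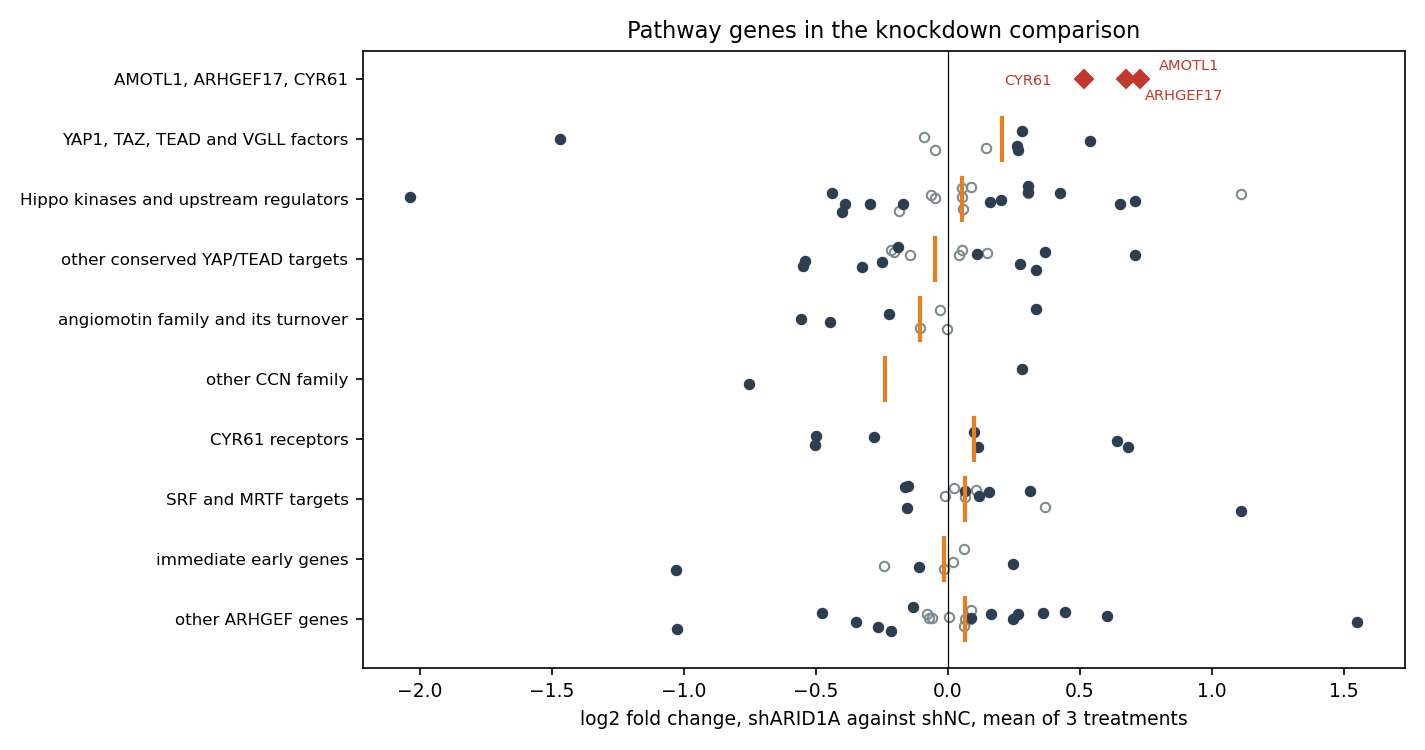
Log2 fold change of shARID1A against shNC, mean of 3 treatments (horizontal axis), for AMOTL1, ARHGEF17 and CYR61 (red diamonds) and for each gene of 9 lists (filled, adjusted p under 0.05 in edgeR; open, not called; orange, list median). The 3 genes were chosen for being higher, the 16 other YAP/TEAD targets comprise 5 that rose, 5 that fell and 6 not called, and list medians run from -0.24 to 0.20.

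The same lists were followed through the hormone treatments. Over the 101 listed genes tested, edgeR called 0 for E2 against DMSO averaged over both arms, with 5 at an unadjusted p under 0.05 beside 696 of all 17020 genes, and DESeq2 also called 0. For E2 plus fulvestrant against E2, edgeR called 0 with 18 at an unadjusted p under 0.05 beside 2489 of all 17020 genes, while DESeq2 called 2 of the 101 beside 245 of all genes. Counts so near the background are no result about the lists. The 2 were ARHGEF12 (0.20, SE 0.05) and ARHGEF2 (-0.17, SE 0.04, both DESeq2 values), which are named because DESeq2 called them.

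Genes whose levels followed each of the 3 most closely were ranked by the root mean square difference of log2 CPM over the 12 libraries, each gene centred on its own mean, among 9868 genes with a symbol and at least 5 CPM. Nearest to AMOTL1 were SH3PXD2A, an adaptor of invadopodia (0.0376), ESYT2, a membrane-tethering protein (0.0408), and ADARB1, an RNA-editing enzyme (0.0489). Nearest to ARHGEF17 were ABCB8, a mitochondrial transporter (0.0560), ST3GAL4, a sialyltransferase (0.0672), and ITGB5 (0.0730), which is also on the list of CYR61 receptors. Nearest to CYR61 were RASA3, a RAS GTPase-activating protein (0.0596), FOSL2, an AP-1 subunit (0.0607), and USP36, a deubiquitinase (0.0614). These 9 genes had log2 fold changes of shARID1A against shNC between 0.51 and 0.75, beside 0.73, 0.68 and 0.51 for AMOTL1, ARHGEF17 and CYR61. The ranking took in both arms, so genes with a like difference between the arms rank near by construction. These fold changes are therefore no separate result. AMOTL1, ARHGEF17 and CYR61 were not nearest to one another. ARHGEF17 and CYR61 ranked 120 and 147 for AMOTL1, AMOTL1 and CYR61 ranked 94 and 129 for ARHGEF17, and AMOTL1 and ARHGEF17 ranked 509 and 533 for CYR61. When each arm was centred on its own mean, 0 of the 3 nearest genes remained for AMOTL1, 1 for ARHGEF17 and 0 for CYR61.

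**Figure D5:**
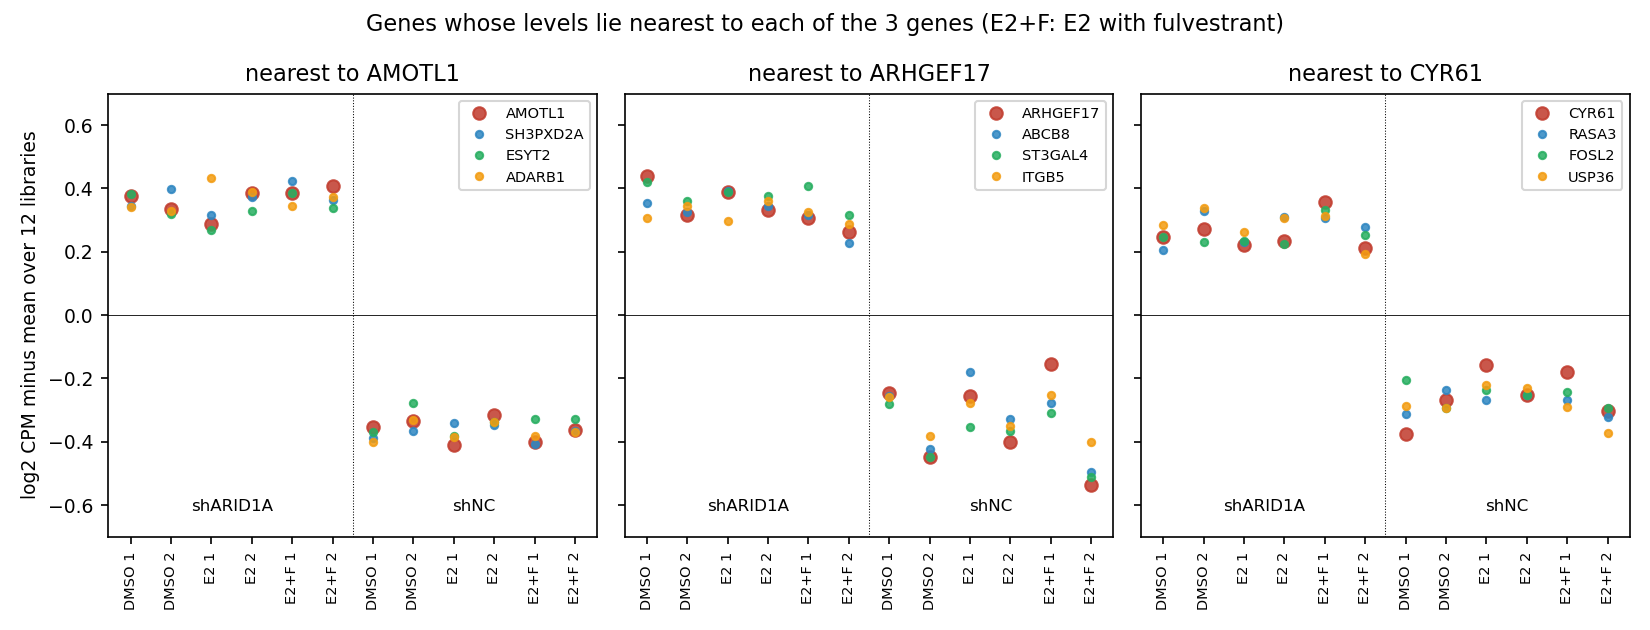
Log2 CPM minus each gene's mean over the 12 libraries (vertical axis) for AMOTL1, ARHGEF17 and CYR61 (large red points) and the 3 nearest genes of each (small points), by library, with shARID1A left of shNC. Every plotted gene is above 0 in the 6 shARID1A libraries and below 0 in the 6 shNC libraries, which a ranking over both arms favours. ARHGEF17 has its widest pair in shNC with E2 plus fulvestrant.

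Tested genes on either side of each locus were described by position alone, outside the rule for named genes. Beside ARHGEF17, P2RY6, a pyrimidine nucleotide receptor whose span begins at -39.1 kb relative to that of ARHGEF17, rose by 1.78 (SE 0.07, adjusted p = 4.3e-19 in edgeR). ENSG00000257038.1, on the opposite strand with its span beginning at -4.3 kb, rose by 0.71 (SE 0.08), and ENSG00000260401.1, at -72.6 kb, rose by 1.64 (SE 0.20). Counting had no strand setting, and whether uncounted exons of ARHGEF17 overlap ENSG00000257038.1 was not checked. Downstream of ARHGEF17, RELT fell by 0.27 (SE 0.06) and FAM168A rose by 0.18 (SE 0.04). Beside AMOTL1, ANKRD49 (0.27, SE 0.07), PIWIL4 (0.35, SE 0.11), CWC15 (0.13, SE 0.05) and ENSG00000255929.1 (0.39, SE 0.13), whose span overlaps that of AMOTL1 on the opposite strand with no shared exon base, rose, each by less than AMOTL1, while SRSF8 (-0.08, SE 0.12) and SESN3 (-0.02, SE 0.14) did not pass the test. Beside CYR61, DDAH1 gave -0.11 (SE 0.05, not called) and ODF2L fell by 0.33 (SE 0.07), and the other 4 neighbours did not pass the test.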

How the data were processed

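RNA was measured in 12 libraries. The authors deposited counts, whole numbers of reads per gene with no normalization. Per the submitters' processing notes, reads were trimmed with Trim Galore and cutadapt and aligned to hg19 with Subread 2.0.0, and per the file headers featureCounts counted exons by gene, with no strand setting. Antisense overlap can thus not be told apart. The fulvestrant dose, typed with letters for zeros, was read as 100 nM.

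The model was edgeR 4.0.16 under R 4.3.3 (filterByExpr by group, TMM, 1 mean per group over all 12 libraries, glmQLFit, glmQLFTest). P-values were adjusted by Benjamini-Hochberg across 17020 genes, separately for each of 16 contrasts. A gene was called under 0.05, and rose or fell refers to called genes. Scripts were tested on simulated data. DESeq2 1.42.0, other size factors, no low-count filter, a replicate block and leaving out each library were alternatives.

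The 3 genes and the 9 lists were chosen with earlier results of these data known; 1 further list is not reported here. Named were the 3 genes, ARID1A, core Hippo genes, and per list up to 4 called genes with the largest change and at least 1 CPM, and the 3 nearest genes of each of the 3. Intervals cover the spread between libraries. Replicate numbers were not taken as pairing libraries.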

Additional observations from a re-analysis of the deposited data

Results flagged for a closer look

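The E2 effect on CYR61 lay on opposite sides of 0 in the arms, and both E2 libraries lay below both DMSO libraries in shARID1A and above both in shNC. The difference, shARID1A minus shNC, was -0.15 on the log2 scale (SE 0.12), and edgeR's test of it gave an adjusted p of 0.88.

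The effect of E2 plus fulvestrant against DMSO on AMOTL1 likewise had no overlap in either arm, with both libraries above DMSO in shARID1A and both below it in shNC. The difference was 0.078 (SE 0.09), with an adjusted p of 0.98 in edgeR. Pairs of libraries can lie apart by chance. How often all genes have such a pattern was not computed, for AMOTL1 here or for CYR61 above.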

How the results depend on the processing

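In 192 values of shARID1A against shNC for AMOTL1, ARHGEF17 and CYR61 under other size factors, no low-count filter, DESeq2, a replicate block and each library left out, 192 were positive. The genes were chosen for this direction and the fits share their libraries, so this count describes the fits and is no test. Of 594 treatment values for these genes under the same alternatives and single-arm fits, 588 had an adjusted p (DESeq2 gave NA for 6), 0 passed the threshold (lowest 0.389) and 51 had the opposite sign. With DESeq2 size factors, E2 plus fulvestrant against DMSO gave -0.00101 for AMOTL1 over both arms (also -0.000999 with the DESeq2 test) and -0.00140 for ARHGEF17 in shNC. With the replicate block, E2 against DMSO over both arms gave 0.000435 for ARHGEF17, and with it every list count stayed within 1.5 times and no treatment call was made for the 3 genes. Deviations of same-numbered libraries correlated at 0.160 to 0.276 among the shNC groups and at 0.119 to 0.237 between each of them and shARID1A with E2 plus fulvestrant, but between -0.222 and 0.120 for the other pairs of groups, so the numbers were not taken as pairing. With DESeq2 size factors, 1 immediate early gene fell instead of 2. Centred within each arm, 0, 1 and 0 of the 3 nearest genes of AMOTL1, ARHGEF17 and CYR61 remained. The cause of these changes was not tested. DESeq2 called 245 genes for E2 plus fulvestrant against E2 over both arms, where edgeR called 11.

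Leaving out each library in turn gave these ranges of log2 fold change. For AMOTL1, E2 against DMSO ran from -0.041 to 0.0065 over both arms, -0.067 to 0.028 in shARID1A and -0.063 to 0.030 in shNC, and its difference between arms from -0.052 to 0.046. E2 plus fulvestrant against E2 ran from -0.0040 to 0.043 over both arms and -0.066 to 0.027 in shNC, and against DMSO from -0.0081 to 0.013 over both arms. For ARHGEF17, E2 against DMSO ran from -0.055 to 0.051 over both arms, -0.081 to 0.042 in shARID1A and -0.082 to 0.13 in shNC. E2 plus fulvestrant against E2 ran from -0.15 to 0.053 over both arms and -0.23 to 0.17 in shNC, and against DMSO from -0.15 to 0.047 over both arms and -0.21 to 0.18 in shNC. The ARHGEF17 differences between arms ran from -0.16 to 0.055 for E2, -0.23 to 0.16 for E2 plus fulvestrant against E2 and -0.28 to 0.12 against DMSO. For CYR61, E2 against DMSO ran from 0.017 to 0.067 over both arms and 0.072 to 0.17 in shNC, and E2 plus fulvestrant against E2 ran from -0.026 to 0.046 over both arms, -0.017 to 0.13 in shARID1A and -0.11 to 0.021 in shNC, and against DMSO from -0.049 to 0.095 in shARID1A, with a difference between arms from -0.13 to 0.023. Counts ran from 2 to 4 for CYR61 receptors that rose, 3 to 6 for SRF and MRTF targets that rose and 1 to 2 for immediate early genes that fell. A group left with 1 library was assumed to vary like the others.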
